A study of Homo sapiens with 3 samples.

Results

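The lipid, metabolic and hypoxia miRNAs described here were the mature products of 7 human hairpins: hsa-mir-33a and hsa-mir-33b, hsa-mir-103a-1, hsa-mir-103a-2 and hsa-mir-107, hsa-mir-378a, and hsa-mir-210. They comprised 11 of the 2580 endogenous mature miRNAs in the deposited table, of which 1351 had any count. The hairpins were listed by name, but the list was chosen on counts already seen in these libraries, since miR-210-3p and miR-33a-5p were known to have fewer counts in the miR-122 library. All values below are therefore descriptions. Small RNA-seq was performed on HEK293 cells of the Flp-In T-REx line, a derivative of human embryonic kidney cells that carries the tetracycline repressor, stably transduced with a lentiviral vector. The control line carried an empty vector (the parent GFP vector without a hairpin), and the other lines carried a miR-1 or a miR-122 hairpin in an intron of the doxycycline-inducible GFP gene. Selection took 6 days at 1 mg/mL Geneticin, and doxycycline was then given at 1 ug/mL for 7 days to all 3 lines, the control included. No single-cell cloning of the lines is described. Each group held 1 library, so no difference below has a replicate check and no test between conditions was made.

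The hairpins share a link to energy and oxygen metabolism, and 6 of the 7 lie within genes of those pathways. The miR-33 hairpins are transcribed with the SREBF genes, whose products switch on cholesterol and fatty acid synthesis, and miR-33 is best known for repressing the cholesterol exporter ABCA1. The miR-103 and miR-107 hairpins lie in PANK genes, which encode the pantothenate kinases that begin coenzyme A synthesis, and these miRNAs are known for dampening insulin signaling. The miR-378a hairpin lies in PPARGC1B, a coactivator of mitochondrial metabolism. miR-210 is the classical target of the hypoxia-inducible factor HIF1A and represses the iron-sulfur cluster scaffold ISCU. miR-122, the miRNA induced in one of the lines, is the dominant miRNA of liver and acts in lipid metabolism there.

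In the GRCh37 annotation (GENCODE release 44, lifted over), each hairpin lay inside its host gene, on the same strand, and overlapped 0 exons of that host. MIR33A was found at chr22:42296948-42297016 in SREBF2 and MIR33B at chr17:17717150-17717245 in SREBF1. MIR103A1 was at chr5:167987897-167987982 in PANK3, MIR103A2 at chr20:3898141-3898218 in PANK2 and MIR107 at chr10:91352500-91352586 in PANK1. MIR378A was at chr5:149112388-149112453 in PPARGC1B. MIR210 was at chr11:568089-568198 in MIR210HG, a long non-coding RNA. The counts themselves were made against hairpin sequences and not against a genome.

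The mature sequences (RefSeq, GRCh38.p14) found for all 11 members are shown for the arms on which the results turn, with the seed, bases 2 to 8 counted from the 5′ end, in capitals. The seed is the part of a miRNA that mostly sets which mRNAs it pairs with.
miR-33a-5p: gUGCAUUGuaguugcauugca
miR-33b-5p: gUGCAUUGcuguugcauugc
miR-33a-3p: cAAUGUUUccacagugcaucac
miR-103a-3p: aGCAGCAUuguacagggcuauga
miR-107: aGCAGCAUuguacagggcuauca
miR-378a-3p: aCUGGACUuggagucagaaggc
miR-378a-5p: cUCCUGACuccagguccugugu
miR-210-3p: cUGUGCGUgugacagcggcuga
miR-210-5p: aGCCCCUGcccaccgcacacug
The near-identical pairs matter for the counts. The pair miR-33a-5p and miR-33b-5p shared the seed UGCAUUG and differed by U9C and A10U (miR-33a-5p base first, positions from the 5′ end), so reads of either could be told apart in their middle. The pair miR-103a-3p and miR-107 shared the seed GCAGCAU and differed only by G22C over 23 bases, so a read that ends before that base matches both. The authors' counting divided such reads among the hairpins. The hairpins hsa-mir-103a-1 and hsa-mir-103a-2 give the same miR-103a-3p, and its counts were summed over both.

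Depth set how far each member could be read. The libraries held 1636834 (control), 2892684 (miR-1) and 2577292 (miR-122) miRNA counts, of which the synthetic hairpins took 0.0216%, 38.1% and 24.4%. Levels are therefore given as CPM, counts scaled to a library total of 1000000 endogenous miRNA counts, and ratios on TMM-scaled endogenous counts. One count was worth 0.513 to 0.611 CPM. The HEK293-associated miR-10a-5p, miR-10b-5p, miR-92a-3p, miR-20a-5p and miR-196a-5p together made up 275871 to 291858 CPM, whereas the 4 blood-cell and the 3 muscle miRNAs listed as markers summed to at most 8.73 and 1.54 CPM. The 2 fibroblast markers summed to 56.5 to 98.2 CPM, and the endothelial miR-126-3p was counted at 3250 to 3868 CPM.

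The members spanned about 4 orders of magnitude. In the control library the order was miR-378a-3p at 21130 CPM, miR-103a-3p at 20618, miR-107 at 1532, miR-378a-5p at 296, miR-210-3p at 130, miR-33a-5p at 114, miR-33b-3p at 12.8, miR-33a-3p at 12.2, miR-33b-5p at 7.94, miR-103a-2-5p at 3.67 and miR-210-5p at 2.44. The 95% Poisson intervals of the first 4 were separate from their neighbours. Those of miR-210-3p (113 to 149) and miR-33a-5p (97.9 to 131) overlapped, as did those of each neighbouring pair among the 5 lowest. In the miR-122 library the 2 most abundant members changed places, with miR-103a-3p at 23093 CPM and miR-378a-3p at 19734. These are levels of sequenced reads, in which ligation differs between sequences, so an order between miRNAs is not one of molecules.

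**Figure D1:**
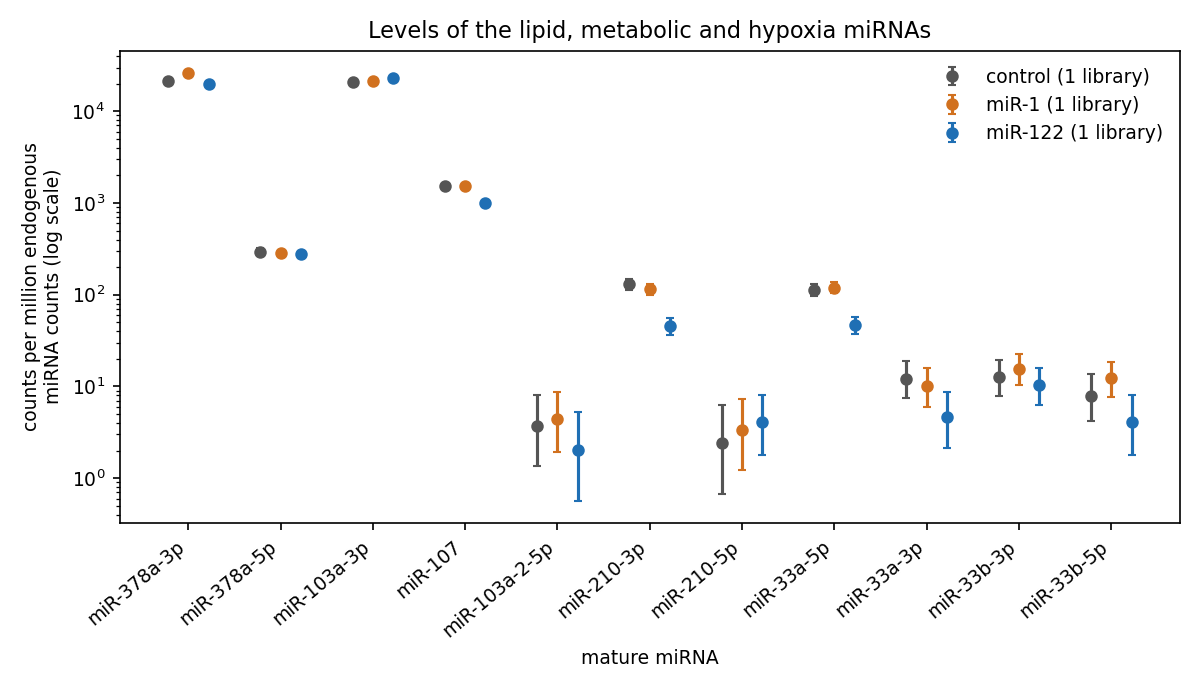
Level of each member in the 3 libraries, in CPM of endogenous miRNA counts on a log axis, with 95% Poisson intervals for counting error (1 library per group). miR-210-3p and miR-33a-5p sit near 100 CPM in control and miR-1 and at 45.7 and 46.2 in miR-122, while miR-378a-3p and miR-103a-3p lie between 19734 and 26437 in all 3.

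Of the 11 members, 9 averaged 10 or more counts across the libraries and entered the ratios, and 6 averaged 100 or more. A difference of at least 2-fold on the scaled counts was used as the limit. Between miR-122 and control, 3 of the 9 passed it and all 3 were lower in miR-122: miR-210-3p, miR-33a-5p and miR-33a-3p. Of all 514 endogenous miRNAs at this count minimum, 9.73% passed in either direction and 6.42% were lower; at a mean of at least 100 counts, 1.52% of 263 were lower, 2 of those 4 being miR-210-3p and miR-33a-5p. Because the list was drawn up with this contrast in view, nothing is read from the excess. Between miR-1 and control 0 of 9 passed, against 3.31% of all miRNAs. Between miR-1 and miR-122, 4 of 9 passed, all higher in miR-1, against 8.56%: the same 3 and miR-33b-5p. Of these, miR-33a-3p fell inside the limit with a pseudocount of 5 (log2 ratio 0.78) and with the induced miRNAs in the total (0.79). With 9 and 8 counts in miR-122, miR-33a-3p and miR-33b-5p reached the mean of 10 only through control and miR-1. The minimum thus admitted both through the libraries where their counts were higher, so nothing is read from their passing the limit. The median log2 ratio of the 9 members was 0.10 for miR-1 to control and -0.51 for miR-122 to control, where the medians of all 514 were 0.00 and -0.04. The miR-122 median rests on values known when the list was chosen, and arms of the same hairpin enter it separately, so it shows no group shift. The comparisons with control share the control library.

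**Figure D2:**
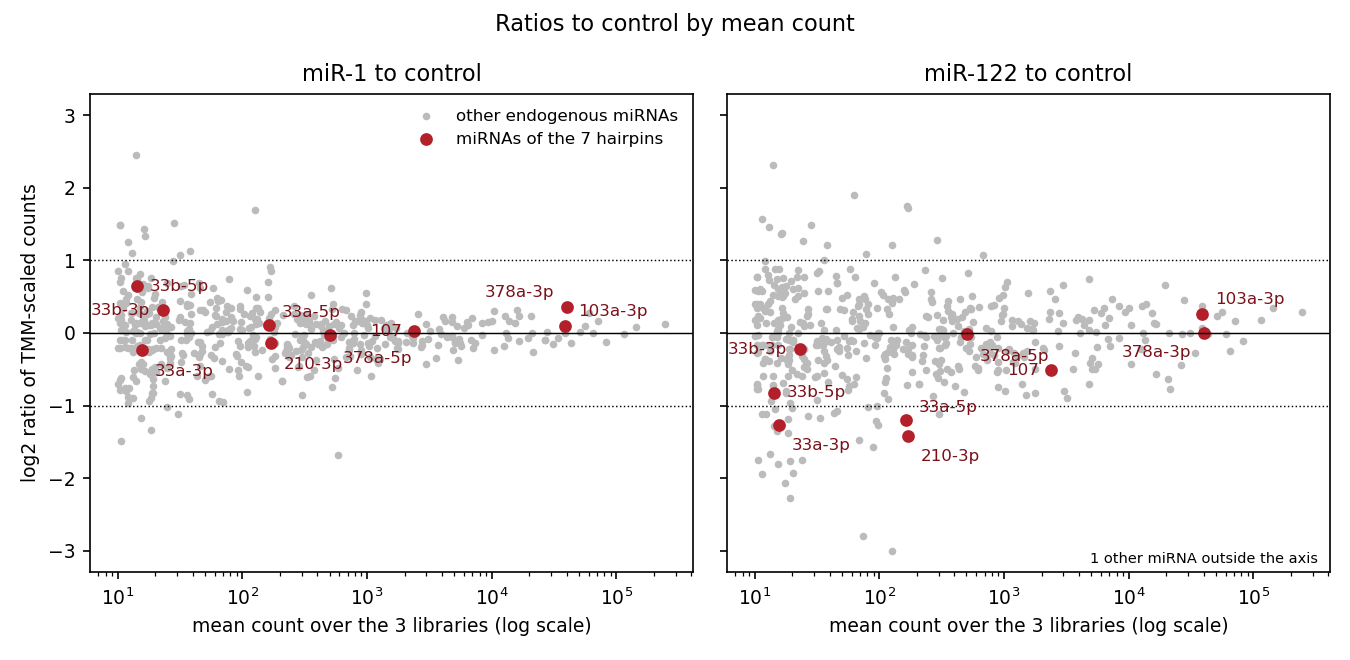
Log2 ratio of TMM-scaled counts to control against mean count (log axis) for the 514 endogenous miRNAs that averaged 10 or more counts, with the 9 members that reached it in red and 2-fold limits dotted. In miR-122 to control, miR-210-3p at -1.41 and miR-33a-5p at -1.20 lie below most miRNAs of similar count, while all 9 lie within the limits for miR-1. Scaling by the total with the induced miRNAs turns negative the 6 miR-1 points of members above 0 and the miR-122 point of miR-103a-3p.

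miR-210, the hypoxia-induced miRNA, had 213 counts of miR-210-3p in control, 206 in miR-1 and 89 in miR-122. The miR-122 library stood apart from the other 2, which lay close to each other. After scaling, miR-210-3p was lower in miR-122 than in control by a ratio of 0.375 (95% exact interval 0.289 to 0.481, counting error only), a log2 ratio of -1.41. The ratio of miR-1 to control was 0.907 (0.745 to 1.10). The 3p arm is the guide, the strand that is normally retained. Its partner miR-210-5p had 4, 6 and 8 counts in control, miR-1 and miR-122, too few to tell whether it followed. The 5p arm thus made up 1.84% of the hairpin's counts in control (95% Wilson interval 0.719% to 4.64%), 2.83% in miR-1 (1.30% to 6.04%) and 8.25% in miR-122 (4.24% to 15.4%). The intervals of control and miR-122 still overlapped, and at 4 to 8 counts a fall of the 5p arm to the extent seen for the 3p arm was barely measurable: the ratio of miR-122 to control for miR-210-5p was 1.69 with an interval of 0.480 to 8.13. The lower bound of that interval lies just inside the upper bound for miR-210-3p.

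miR-33a, from the SREBF2 intron, was counted on both arms, the 3p arm at only 9 to 20 counts. miR-33a-5p, the arm that targets ABCA1, had 186 counts in control, 214 in miR-1 and 90 in miR-122. miR-33a-3p had 20, 18 and 9 counts. On both arms the miR-122 library had the lowest count, and control and miR-1 were close together. The ratio of miR-122 to control was 0.435 for miR-33a-5p (95% exact interval 0.333 to 0.560) and 0.415 for miR-33a-3p (0.162 to 0.926). The 3p arm made up 9.71% of the hairpin's counts in control, 7.76% in miR-1 and 9.09% in miR-122. The intervals overlapped throughout and ran from 4.86% to 16.4% in miR-122, too wide to show whether the share was kept. The ratio of miR-1 to miR-122 was 2.48 for miR-33a-5p (1.94 to 3.22); for miR-33a-3p it was 2.04, and its interval of 0.893 to 5.29 included no difference.

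The SREBF1-hosted miR-33b was less abundant, at 4.11 to 12.3 CPM on its 5p arm against 46.2 to 119 for miR-33a-5p. miR-33b-5p had 13 counts in control, 22 in miR-1 and 8 in miR-122, and miR-33b-3p had 21, 28 and 20. Unlike miR-33a, the 3p arm had the higher count in each library, with 61.76% of both arms in control (95% Wilson interval 45.04% to 76.10%), 56.00% in miR-1 (42.31% to 68.84%) and 71.43% in miR-122 (52.94% to 84.75%). Only the last interval excluded equal arms. The ratios to control had wide intervals that included 1: 0.564 (0.198 to 1.43) for miR-33b-5p and 0.854 (0.439 to 1.65) for miR-33b-3p in miR-122, and 1.56 (0.765 to 3.43) and 1.24 (0.685 to 2.32) in miR-1, where the log2 ratios turned to -0.08 and -0.41 with the induced miRNAs in the total. In the ratios to control, the depth therefore did not show whether miR-33b moved with miR-33a. miR-33b-5p was 2.77-fold higher in miR-1 than in miR-122 (1.23 to 7.48), from 22 and 8 counts. Summed over the shared seed UGCAUUG, the miR-33 guides stood at 122 CPM in control, 132 in miR-1 and 50.3 in miR-122, and the ratio of miR-122 to control was 0.442 (0.343 to 0.565). No other miRNA with a sequence in the RefSeq table carried that seed, so this sum is nearly that of miR-33a-5p alone.

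**Figure D3:**
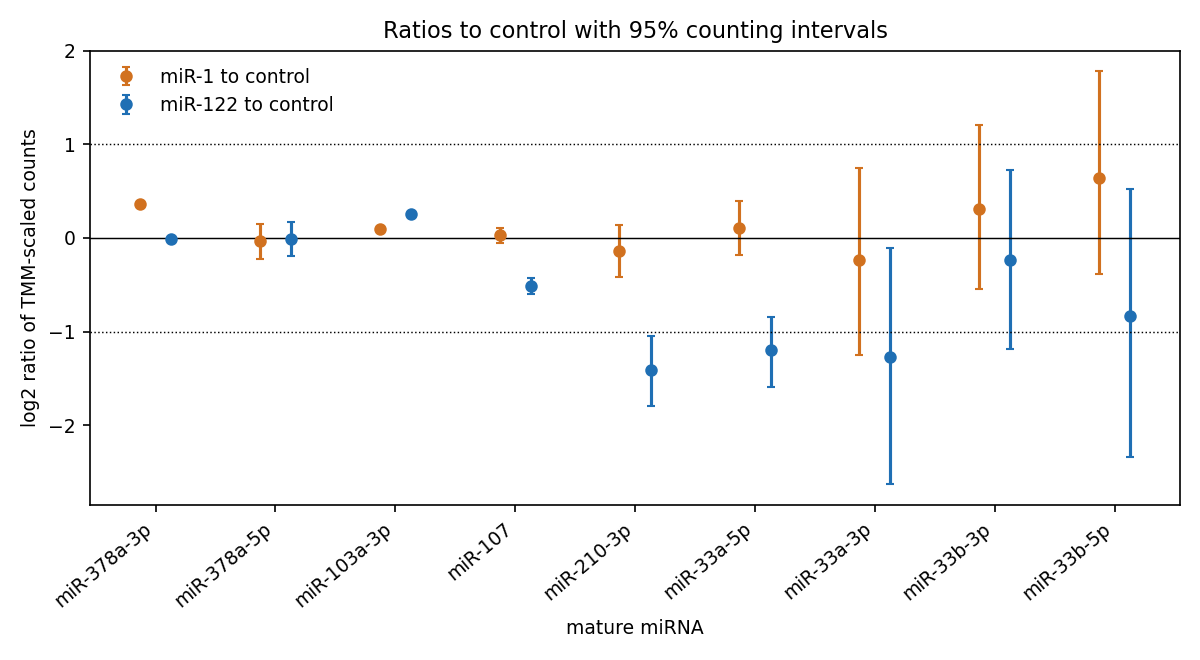
Log2 ratio to control of the 9 members with a mean count of at least 10, with 95% exact intervals for counting error and 2-fold limits dotted. The miR-122 points of miR-107, miR-210-3p and both arms of miR-33a lie below 0 with their intervals, and the intervals of miR-33b span 0 in both comparisons.

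In the miR-103/107 family the 2 mature miRNAs went in different directions in the miR-122 library. miR-103a-3p had 33742 counts in control, 38605 in miR-1 and 44977 in miR-122. miR-107 had 2507, 2725 and 1959. The miR-122 library was the highest for miR-103a-3p and the lowest for miR-107. After scaling, miR-107 was lower in miR-122 than in control by a ratio of 0.700 (95% exact interval 0.659 to 0.743), while miR-103a-3p was 1.19-fold higher (1.18 to 1.21), a sign that turned to a log2 ratio of -0.24 when libraries were scaled by their total with the induced miRNAs. Neither reached 2-fold, except that miR-107 stood at a log2 ratio of -1.01 under that scaling. The ratios for miR-1 were 1.02 (0.965 to 1.08) for miR-107 and 1.07 (1.06 to 1.09) for miR-103a-3p, which became log2 ratios of -0.70 and -0.63 with the induced miRNAs in the total.

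The share of the pair does not depend on scaling. miR-107 made up 6.92% of the counts of miR-103a-3p and miR-107 in control (95% Wilson interval 6.66% to 7.18%), 6.59% in miR-1 (6.36% to 6.84%) and 4.17% in miR-122 (4.0% to 4.36%). The miR-122 interval was far below the other 2, which overlapped. In other words there were 13.5, 14.2 and 23.0 counts of miR-103a-3p per count of miR-107. Counting miR-103a-3p from its highest hairpin alone, in place of the sum, gave miR-107 shares of 12.89%, 12.32% and 7.98%. Counts of miR-107 were fractional in steps of a read divided by 3, so some of its counts came from reads divided among all 3 hairpins, and how many was not measured here. The share of truncated reads in each library was not measured either, and its part in the difference was not tested. Within miR-103a-3p, the hairpin hsa-mir-103a-2 held 137 more counts than hsa-mir-103a-1 in control, 180 more in miR-1 and 197 more in miR-122, out of 16802 to 22390 for the latter; nearly all reads were thus divided evenly, and the PANK2 and PANK3 copies could not be told apart. The passenger miR-103a-2-5p had 6, 8 and 4 counts. Summed over the shared seed GCAGCAU, the family stood at 22151 CPM in control, 23067 in miR-1 and 24099 in miR-122. On TMM-scaled counts the seed total was 1.16-fold higher in miR-122 than in control (1.14 to 1.18), beside the lower miR-107 count. Most of this total was miR-103a-3p, whose log2 ratio was -0.24 with the induced miRNAs in the total. The seed total was not recomputed under that scaling.

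miR-378a, from the PPARGC1B intron, was the most abundant member in the control and miR-1 libraries. miR-378a-3p had 34578 counts in control, 47366 in miR-1 and 38434 in miR-122. After scaling it was 1.28-fold higher in miR-1 than in control (95% exact interval 1.27 to 1.30), a log2 ratio of 0.36 that became -0.37 under scaling by the total with the induced miRNAs, and 0.996-fold in miR-122 (0.981 to 1.01). This was below the 2-fold limit and close to the spread of log2 ratios over all 514 miRNAs, 0.31. The partner arm miR-378a-5p had 485, 505 and 536 counts and a ratio of 0.976 in miR-1 (0.860 to 1.11). The 5p arm therefore held a smaller share of the hairpin in miR-1, 1.05% (95% Wilson interval 0.967% to 1.15%), than in control, 1.38% (1.27% to 1.51%), or in miR-122, 1.38% (1.26% to 1.5%). These shares are within-library values and do not change with scaling. The seed CUGGACU was also found in miR-378c, with 1388, 1594 and 1280 counts, and in miR-378i, with 19, 19 and 13. miR-378a-3p made up 96.07% to 96.72% of this seed family as listed in RefSeq, in which miR-378d and miR-378e were not entered. miR-378c differs from miR-378a-3p by G21A and C22G over the 22 shared bases, so a read that ends before base 21 matches both. How many such reads were divided between them was not measured, and the family share may depend on it. The log2 ratio of miR-1 to control for miR-378c was 0.11.

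**Figure D4:**
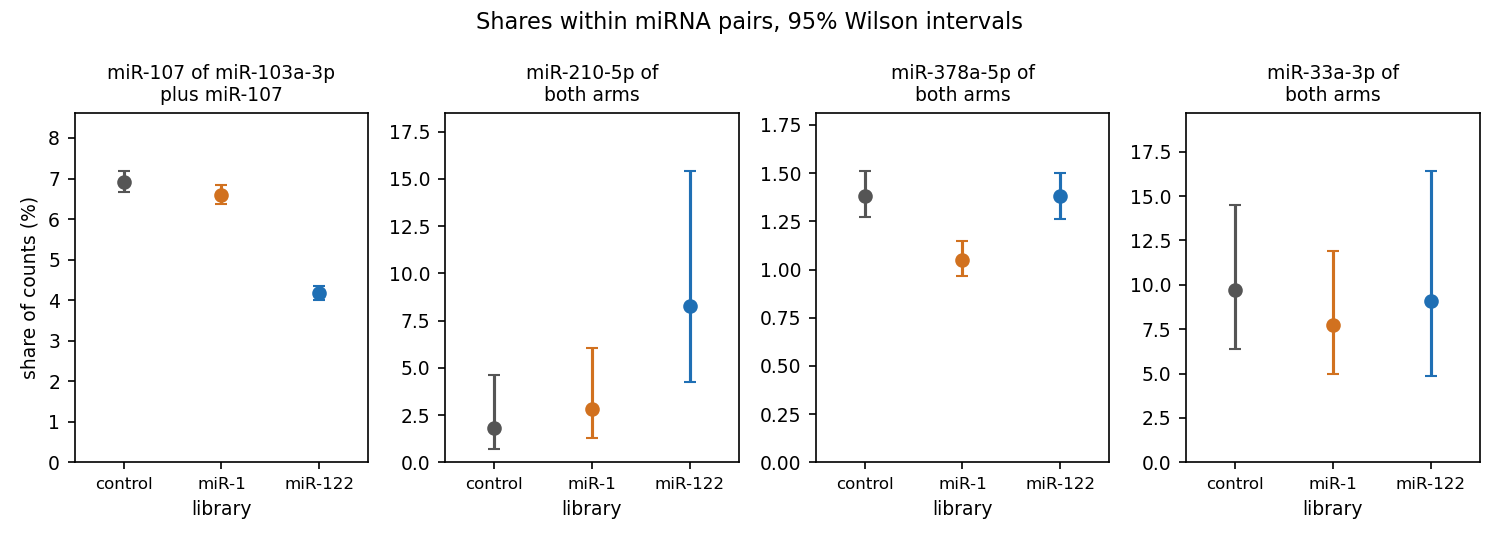
Shares within pairs of miRNAs in each library (percent of the pair's counts, y axes from 0, 95% Wilson intervals). miR-107 falls from 6.92% in control to 4.17% in miR-122, miR-378a-5p is lowest in miR-1 at 1.05%, miR-210-5p rests on 4 to 8 counts, and miR-33a-3p lies between 7.76% and 9.71%.

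The miRNAs whose pattern was most like those of miR-210-3p and miR-33a-5p were sought by the Euclidean distance in the pair of log2 ratios to control, among the 262 other endogenous miRNAs that averaged 100 or more counts. Both members were in each other's 3 nearest, at a distance of 0.33. For miR-210-3p the others were miR-18a-5p (distance 0.54) and miR-424-5p (0.56). For miR-33a-5p they were miR-18a-5p (0.32) and miR-301b-3p (0.34). miR-18a-5p, of the miR-17-92 cluster, had 3552, 3852 and 2132 counts in control, miR-1 and miR-122. Both members were listed with their lower miR-122 counts already known. The distance uses those same counts, so nothing is read from their nearness to each other. The likeness covers 3 libraries and 1 shared control, and says nothing of shared control or function.

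Other miRNAs of the same pathways were compared by the same limit. Of 12 further miRNAs known to respond to hypoxia, 11 had a mean count of at least 10, and 1 of them passed between miR-122 and control, where 9.73% of all miRNAs did, and 0 between miR-1 and control, where 3.31% did. This was miR-181c-5p, with 129 counts in control, 91 in miR-1 and 62 in miR-122, a log2 ratio of -1.21 (95% interval -1.68 to -0.77). The median log2 ratio to control of the 11 was -0.18 for miR-122 and -0.13 for miR-1, beside -0.04 and 0.00 for all 514. The most abundant were miR-21-5p, miR-26a-5p and miR-26b-5p, at log2 ratios of -0.01, 0.00 and -0.34 in miR-122 to control. Of 18 further miRNAs known to act on lipid or glucose metabolism, 13 were counted at that level and 0 passed in either comparison with control, beside the same 9.73% and 3.31%. Over 13 miRNAs those shares are too small for a count of 0 to set the list apart. The most abundant were miR-148a-3p, miR-27b-3p and miR-30c-5p, with log2 ratios of 0.35, 0.00 and -0.10 in miR-122 to control. miR-148a-3p, a repressor of the LDL receptor, had 122214, 138175 and 173708 counts. Between miR-1 and miR-122, miR-301b-3p (159 against 73 counts, log2 ratio 1.18) and the islet miRNA miR-375 (349 against 801 counts, log2 ratio -1.13) passed the limit, beside 8.56% of all miRNAs. The median log2 ratio to control of the 13 was -0.10 for miR-122 and -0.06 for miR-1.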

How the data were processed

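Small RNA was sequenced from 3 lines, 1 library each, prepared with 1000 ng of total RNA as input. Per the study's methods, the authors trimmed adapters, discarded reads under 18 nt, collapsed identical reads and counted them with miRDeep2 (version not given in the sources used here) against miRBase release 21 hairpins plus their synthetic ones. The deposited values are estimated counts per mature miRNA and hairpin, with multi-mapping reads divided. The RPM values deposited by the authors include the induced miRNAs in the total and differed from counts divided by that total by at most 0.00652; RPM entered only that check.

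Counts were summed by mature name, the synthetic hairpins set aside, and miRNAs averaging 10 or more counts kept (miR-3591-5p, on the hairpin antisense to miR-122, remained among the endogenous ones). Libraries were scaled by TMM (edgeR 4.0.16, R 4.3.3), and log2 ratios used a pseudocount of 0.5 counts. Intervals (SciPy 1.17.1) are 95% exact for ratios (Clopper-Pearson) and Poisson levels, and Wilson for shares. They cover counting error only and no difference between cultures or libraries, as each group held 1 library. Reads carried no molecular identifiers. The code was tested on simulated data. Positions came from GENCODE and sequences from RefSeq.

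The members, gene lists and alternatives were chosen with earlier results of these data known. Named were all members, miRNAs that share a member's seed and averaged 10 or more counts, the 3 nearest patterns, and from each list the miRNAs past 2-fold and the 3 most abundant in control. Pooled count columns were not used.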

Additional observations from a re-analysis of the deposited data

How the results depend on the processing

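No paired analysis was possible because there was a single library for every condition. Of 135 log2 ratios of members recomputed under other settings, 112 stayed inside their counting interval, 23 moved outside it and 10 changed sign, none of them past 2-fold. Of the 23, 16 came from scaling by the total with the induced miRNAs and 7 from scaling by the endogenous total. The former shifted the overall median log2 ratio to control to -0.73 for miR-1 and -0.53 for miR-122, by construction, since the induced miRNAs enter the total. Under it, 5 members were at least 2-fold lower in miR-122 than in control. With a mean count of at least 100 required, 2 members passed between miR-1 and miR-122, because fewer entered. At a limit of 1.5-fold, 1 member passed between miR-1 and control, miR-33b-5p. The other counts of members stayed within 1.5 times. miR-210-3p in miR-122 to control ran from -1.91 to -1.37 and miR-33a-5p from -1.70 to -1.17. With a pseudocount of 5, miR-33a-3p was at -1.0, just inside 2-fold. The miR-107 shares kept their order with 1 hairpin of miR-103a-3p counted. The number of all miRNAs past 2-fold was 17 for miR-1 and 50 for miR-122 against control and 44 between both lines. In that order it became 108, 101 and 46 under the total with the induced miRNAs, 426, 509 and 467 without a filter, 2, 10 and 8 at a mean of at least 100, 7, 36 and 27 with a pseudocount of 5, and 86, 139 and 119 at 1.5-fold. Counts of 28 or fewer limit miR-33a-3p, both arms of miR-33b, miR-103a-2-5p and miR-210-5p.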

Other observations

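Base composition was compared because miR-210-3p, at 63.6% G and C, and miR-33a-5p, at 42.9%, differ widely in it. Among the 452 of 514 endogenous miRNAs with a RefSeq sequence, the median log2 ratio of miR-122 to control was -0.25 for the 104 under 40% G and C, 0.02 for the 267 from 40% to under 60%, and 0.06 for the 81 at 60% or more. Under 40% G and C, 12 of the 104 were at least 2-fold lower in miR-122. miR-210-3p, at -1.41, was in the class whose median was highest, where 3 of 81 were at least 2-fold lower, itself included. miR-33a-5p, at -1.20, was in the middle class, where 12 of 267 were, itself included. At a mean of at least 100 counts, 1 of 45 and 1 of 139 in the classes of these members were at least 2-fold lower, namely the members themselves. Under 40% G and C it was 1 of 51. The 3 medians for miR-1 to control ran from -0.04 to 0.03.

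The members richest in G and C were miR-33b-3p and miR-210-5p, both at 72.7%, with 20 to 28 and 4 to 8 counts. The part of base composition in the members' ratios was not tested.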
